A study of Mus musculus with 3 samples.

Results

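The splicing factor and snRNP genes are the protein genes of the spliceosome and its best-known RNA-binding partners. They were taken by name: every gene on the array whose name in the scanner files follows the pattern Srsf, Sfrs, Hnrnp, Sf3a, Sf3b, Snrp, Snrnp, Prpf or U2af with its number or letter, control spots left out. The pattern found 72 genes of 30119, carried by 125 of 39429 probes, and used no measured value. They comprise 18 hnRNP genes, 12 genes named as SR proteins, 19 genes of the U1 and U2 snRNPs, 13 of the U5 snRNP, the U4/U6.U5 tri-snRNP and later steps, 3 of the minor U11/U12 snRNP and 7 of the Sm core. Of the 72, 71 could be tested among 19668 genes. Hnrnpul2 was left out because a spot of it was marked as an outlier on an array. The 71 were well above background in 1 genotype or both on every array, and Hnrnpul2 was so in at least 1 genotype on at least 1 array.

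The samples were mouse embryoid bodies, suspended balls of embryonic stem cells that are differentiating, after 10 days in low-attachment plates without LIF, the cytokine that holds such cells in self-renewal. Wild-type embryoid bodies were compared with a mutant, labelled Dido3deltaCT+HADidoNT, whose Dido3 protein lacks its full C terminus and which overexpresses, in addition, the HA-tagged N-terminal region common to the Dido proteins, which holds the PHD finger. There were 3 biological replicates of each, on 3 two-colour arrays of 1 mutant and 1 wild-type RNA each. The mutant carried the Cy3 (green) dye on arrays 1 and 3 and the Cy5 (red) dye on array 2. The C-terminal loss and the added N-terminal protein occur in the same cells, so their effects cannot be told apart. Each value is the log2 of mutant over wild-type signal after normalization within its array, so that a positive one means more in the mutant. Errors are the SD of the n = 3 arrays.

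Nuclear genes are transcribed with introns, which the spliceosome removes. Its core is a set of small nuclear ribonucleoproteins (snRNPs), each a short U RNA wrapped in a ring of Sm proteins with its own further proteins. The U1 snRNP reads the start of an intron, the U2 snRNP reads its branch point, and the U4/U6.U5 tri-snRNP joins to form the catalytic machine. A minor spliceosome with U11 and U12 serves a rare class of introns. SR proteins mostly favour the use of nearby splice sites and hnRNP proteins often oppose it, and many of both regulate their own transcripts through splicing or through their untranslated ends. Splicing has been proposed as a function of Dido3.

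The Dido1 gene, which gives rise to Dido3, was read by 4 probes that did not move together. A probe read -3.79, -3.58 and -3.45 on arrays 1, 2 and 3 (mean -3.60 ± 0.17), and 2 others rose to 2.35 ± 0.40 and 3.03 ± 0.34. All 3 passed in limma, with adjusted p of 0.0310, 0.0342 and 0.0310 over all probes by Benjamini-Hochberg. The fourth read -1.61, 0.05 and -0.07 and did not pass. Median spot brightness was 150 to 288 units per array and dye, over a local background of 36 to 40, and 64.8% to 76% of spots were well above background.

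No splicing factor or snRNP gene passed the adjusted threshold in either direction. In limma, 0 of 71 members had an adjusted p under 0.05, where 325 of all 19668 genes (1.65%) did, 249 higher (1.27%) and 76 lower (0.386%) in the mutant. At an unadjusted p under 0.05 there were 3 members lower, Hnrnph3, Pnisr and Sf3b1, and 0 higher, against 7.77% and 12.1% of all genes, or 19.9% in either direction. The smallest adjusted p of a member was 0.104, and the smallest absolute log2 ratio that passed for any gene was 1.37. Ratios of the size the members had were therefore below any that passed with these 3 arrays.

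The members' ratios were small beside those of the genome. Their mean log2 ratios ran from -0.86 to 0.52, with a median of -0.065 and quartiles of -0.31 and 0.08, and the median of all genes was -0.013. Fewer cells of a type and less RNA per cell cannot be told apart in these bulk samples. At the brightest probe of each gene, which these values use, none of the 71 differed 2-fold on average, where 2204 genes (11.2%) did. Dimmer probes of Srsf6 (-1.40) and Srsf10 (-1.34), given below, averaged more than 2-fold lower. An absolute log2 ratio under 0.5 was seen in 62 members (87.3%) and in 68.9% of all genes. The 95% interval lay wholly within 2-fold for 47 members (66.2%) and for 51.8% of all genes, so for the other members the data did not limit the change to under 2-fold. The median interval half-width was 0.58 for members and 0.61 for all genes. The mean was below 0 for 43 of 71 members, against 51.3% of all genes. All 3 arrays had the same sign for 9 members lower and 8 higher, against 19.1% and 22.5% of all genes.

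**Figure D1:**
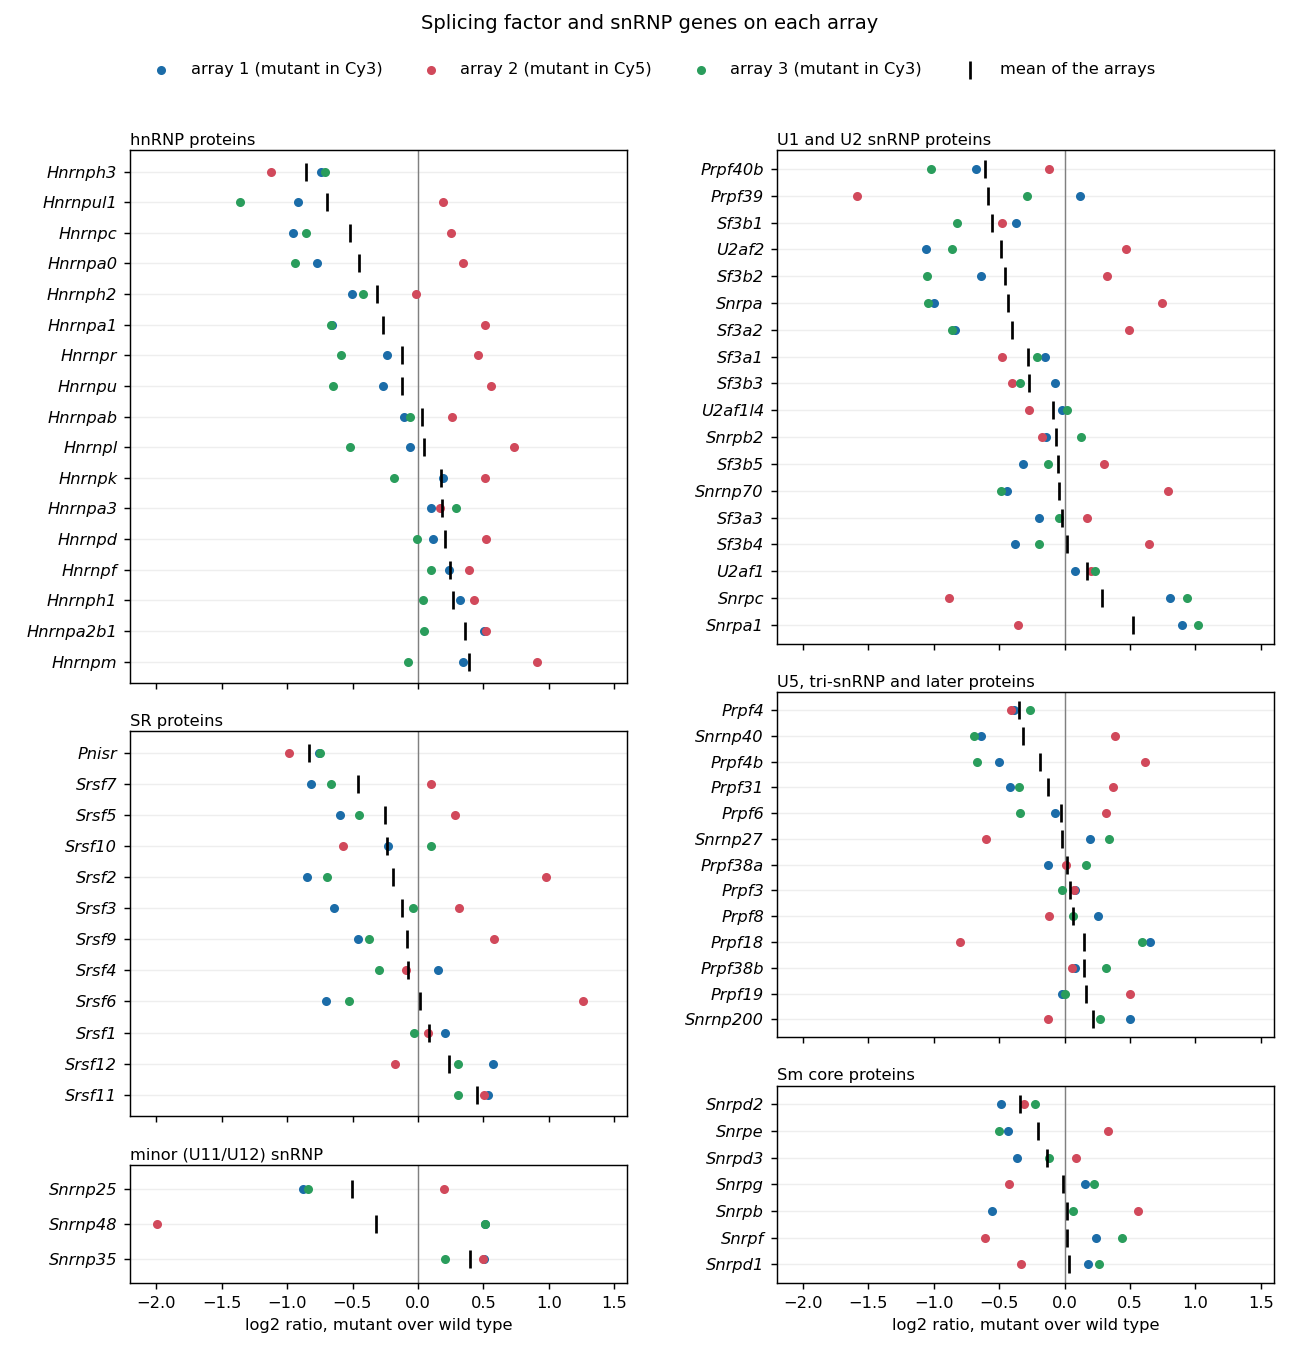
Log2 ratio of mutant over wild type on each array for the tested members, 1 of them not shown, by role, sorted by mean; coloured points are the arrays and black ticks their mean. Points of array 2, the array with exchanged dyes, lie apart from those of arrays 1 and 3 in many rows, and no mean exceeds 1 in size.

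Among the hnRNP genes, whose proteins coat nascent transcripts and often oppose splice site use, Hnrnph3 had the lowest ratio of all members. It read -0.74, -1.12 and -0.71 on the 3 arrays. Its mutant values on each array lay below all wild-type values, so the groups did not overlap, a separation found with the mutant below in 4 members and in 8.58% of all genes. The mean was -0.86 ± 0.23, a 1.81-fold lower level, with an adjusted p of 0.110 in limma. A second Hnrnph3 probe, matched to another transcript, read -1.12, -0.46 and -1.20 (-0.93 ± 0.41), so both probes of the gene were lower on every array. Of its relatives, Hnrnph2 was also lower on each array at -0.51, -0.02 and -0.42 and Hnrnph1 was higher at 0.32, 0.43 and 0.04. Neither passed (adjusted p = 0.470 and 0.521 in limma). Hnrnpa2b1, an RNA-binding protein of the nucleus that also sorts RNAs, read 0.51, 0.52 and 0.04, with mutant values all above wild type (13% of all genes), and did not pass (adjusted p = 0.417). A second Hnrnpa2b1 probe read 1.42, -0.94 and 1.07, opposite in sign on array 2. Over the 17 tested hnRNP genes, 8 means were below 0 and 9 above, with a median of 0.03.

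The SR genes had their lowest value in Pnisr, listed on the array under its older name Sfrs18, an arginine-serine-rich nuclear protein. Pnisr read -0.76, -0.99 and -0.75, a mean of -0.83 ± 0.14 (1.78-fold lower), and its adjusted p of 0.104 in limma was the smallest of the members. The mutant and wild-type values overlapped across arrays although every array was lower. A second probe on another transcript read -0.47, 0.18 and -0.87. Srsf11, an SR-related protein, stood at the other end of the group with 0.54, 0.50 and 0.31 (0.45 ± 0.12, adjusted p = 0.279), and its mutant values all lay above the wild-type values. The other 2 Srsf11 probes, on other transcripts, averaged 0.14 and 0.26. The best-known SR genes, Srsf1, Srsf2 and Srsf3, had means of 0.08, -0.19 and -0.12. Over the 12 genes the median was -0.10, with 8 means below 0.

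The U1 and U2 snRNP genes had 15 of 19 means below 0, against 51.3% of all genes, and a median of -0.09. Of the 19, 4 were lower and 1 higher on all arrays, and 8 were brighter in red on every array. Snrpa1, a U2 protein, had the highest mean of all members (0.52) and read 0.90, -0.36 and 1.02. Sf3b1, the large scaffold of the U2 complex that holds the branch point, read -0.37, -0.48 and -0.82. Its mutant values all lay below its wild-type values, and the mean of -0.56 ± 0.24 (1.47-fold lower) had an adjusted p of 0.226 in limma. Its partner Sf3b3 read -0.07, -0.41 and -0.34 and also did not overlap between genotypes, and Sf3a1 read -0.15, -0.47 and -0.21. Neither passed. Other parts of the same complex differed in sign between arrays, among them Sf3b2 at -0.64, 0.32 and -1.05 and Sf3a2 at -0.84, 0.49 and -0.86. U2af1, the small subunit of the factor that reads the end of an intron, was close to level at 0.08, 0.20 and 0.23, while its large partner U2af2 read -1.06, 0.47 and -0.86. Prpf40b, a U1-associated protein, read -0.68, -0.12 and -1.02 (-0.61 ± 0.46, adjusted p = 0.275), and a probe upstream on the same transcript read 0.21, 0.63 and -0.12.

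The 13 genes of the U5 snRNP, the tri-snRNP and later steps stayed near 0. All 13 means were within 0.5 of 0, with a median of 0.02. Prpf8, the protein at the catalytic centre, read 0.26, -0.12 and 0.07, and Snrnp200, the helicase that unwinds U4 from U6, read 0.50, -0.13 and 0.27. Prpf4, a tri-snRNP protein, was lower on each array at -0.38, -0.41 and -0.27 (-0.35 ± 0.08, adjusted p = 0.371), and Prpf38b was the member higher on each array at 0.08, 0.05 and 0.31. A second Prpf38b probe on the same transcript read 1.24, -0.28 and 1.17.

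The 7 Sm core genes, which every major snRNP but U6 shares, all had intervals within 2-fold. Their means ran from -0.34 to 0.03 with a median of -0.01. At the brightest probes, Snrpd2 was the only one with a single sign, at -0.49, -0.31 and -0.23 (-0.34 ± 0.13, adjusted p = 0.392 in limma). Its mutant values lay below all wild-type values, and its 2 other probes averaged -0.47 and -0.26. A dimmer Snrpd1 probe was also lower on all arrays, at -0.87, -0.64 and -0.53 (mean -0.68), and did not pass. Of the minor snRNP genes, Snrnp35 read 0.50, 0.50 and 0.20 and a neighbouring probe averaged 0.55. Snrnp25 averaged -0.51 and Snrnp48 -0.32, both with opposite signs between arrays. A second Snrnp25 probe was lower on all arrays, at -0.57, -0.25 and -0.46.

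Many members had 1 sign on arrays 1 and 3 and the other on array 2, where the dyes were swapped. The median of the 71 members was -0.15 on array 1, 0.20 on array 2 and -0.18 on array 3, while the median of all genes was between 0.01 and 0.03 on each. Written as red over green, the members' medians were 0.15, 0.20 and 0.18. The red channel was the brighter on every array for 29 members (40.8%), whichever genotype it held, against 19.3% of all genes. The green channel was the brighter on every array for 11 members (15.5%), against 19.1%. The mutant was green on 2 arrays and red on 1, so the mean weighs the 2 dye orientations unequally. With a dye term in the fit, the median was -0.0058 for members and -0.020 for all genes, against -0.065 and -0.013 without it. The role of the dye in the slightly negative medians was not tested, as the single array of the other orientation cannot be told apart from replicate 2.

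The size of this offset went with the base composition of the probe, though not in every member. The probes of the 3 members with the highest difference between array 2 and the mean of the others (1.87, 1.76 and 1.75), and of the 2 with the lowest (-1.75 and -2.51), are given in that order, to set their letters beside their readings. Each line gives the first 30 of 60 bases as the scanner files list the probe, 5′ to 3′, with G and C in capitals.
Srsf6 at base 1235: taGGCaGttaCtCttCCGaGtttataCtCG
Snrpa: aGGGaCCttCtCaGaGCCGtGtGtGtGtGG
Srsf2: atCGaGaaGCCCtCCGCCCGtGtCGaaGCG
Snrpc: GGaaaCttCCCttCCtaaCtGaatattttt
Snrnp48: tCCtaCaGaGCtaaGaatGttCGCataaCC

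These probes lie at chr2:162760546-162760605 (Srsf6, plus strand), chr7:27972091-27972150 (Snrpa, minus strand), chr11:116713385-116713444 (Srsf2, minus strand), chr17:27988801-27988860 (Snrpc, plus strand) and chr13:38309317-38312568 (Snrnp48, plus strand) in mm9, the build of the files. The Snrnp48 interval is longer than the probe, so this probe crosses at least 1 exon junction. Exon or UTR was not assigned to the others, as no annotation of mm9 was used here. Srsf2, with 61.7% G and C, read -0.84, 0.98 and -0.70, and Snrpa, with 55%, read -1.0, 0.74 and -1.04. Another Srsf2 probe, on another transcript, read 0.43, -0.98 and 0.18, opposite in sign on every array. Srsf6 had the highest difference of all with only 41.7%, and read -0.70, 1.26 and -0.52. Snrpc, with 35%, read 0.81, -0.88 and 0.93, and Snrnp48, with 43.3%, read 0.51, -1.99 and 0.51. At the printed probes, each of these 5 genes had the same sign on arrays 1 and 3 and the opposite sign on array 2. With a dye term in the fit the Snrnp48 estimate was -0.74. In that fit array 2 is the only array of its orientation, so the estimate leans on the reading of -1.99 there. Prpf39 was different: it read 0.12, -1.59 and -0.29, low on array 2 alone, and a second probe gave -0.04, -1.92 and 0.01.

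Across the 71 members the difference between array 2 and the mean of arrays 1 and 3 rose with the G and C content of the probe (Pearson r 0.43, Spearman rho 0.46). Across all 19668 genes r was 0.37 and rho 0.39. These are descriptions across genes of the same 3 arrays, and genes are not independent replicates. The median G and C content was 45% for the 29 members brighter in red and 36.7% for the 11 brighter in green, the same pair of medians as in all genes of those patterns. With the trend on G and C content taken out within each array, a choice made with the values in view, 33 members were still brighter in red on every array and 9 in green, and the members' median was -0.11.

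**Figure D2:**
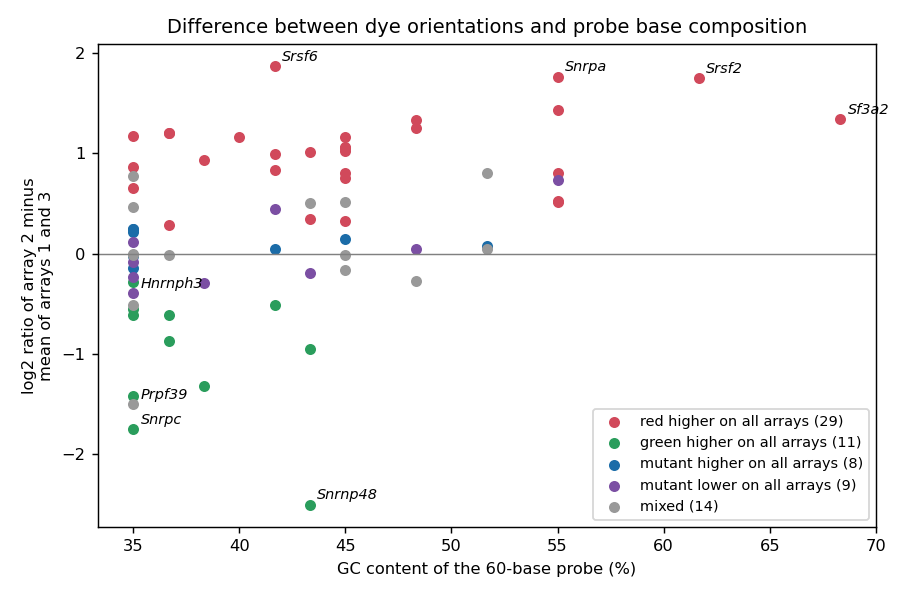
Difference in log2 ratio between array 2 and the mean of arrays 1 and 3 (vertical) against the G and C content of the probe in percent (horizontal) for the 71 members, coloured by sign pattern with the number of genes in brackets. Members brighter in red lie above 0 and reach 68.3% G and C, and those brighter in green lie below 0 and do not exceed 43.3%.

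Leaving out array 2 gave more member calls than any other setting tried. On arrays 1 and 3 alone, which share a dye orientation, 17 of 71 members (23.9%) passed in limma, 15 lower and 2 higher, and so did 5082 of all genes (25.8%). The members' median was then -0.20. The 2 higher were Snrpc and Snrpa1. Of the 15 lower, Hnrnph3, Pnisr and Prpf40b stayed below 0 on array 2, at -1.12, -0.99 and -0.12. The rest turned positive there, among them Snrpa, Srsf2, U2af2, Sf3a2, Sf3b2 and Hnrnpc, although a second Hnrnpc probe read -0.30 on array 2. With this pair of arrays, dye and genotype cannot be told apart. Without array 1 or array 3, 0 members and 0 genes passed.

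Single probes gave a result that the gene values did not show. Of the 119 member probes kept, 1 passed in limma with adjustment over all 25497 probes, where 663 (2.6%) passed and 0.682% passed as lower. Counted by gene, 1.41% of members and 3.16% of all genes had a probe that passed, so the members did not exceed the rest. It was the downstream probe of Srsf6, an SR protein that takes part in exon choice. The pair of Srsf6 probes lies on a single RefSeq transcript, the upstream one starting at base 1235 and the downstream one at 3179. The first 30 bases of each are shown so that the 2 readings can be tied to their place, with G and C in capitals.
Srsf6 at base 1235: taGGCaGttaCtCttCCGaGtttataCtCG
Srsf6 at base 3179: GCaGaaGtGaCtGaCttaaaGtGttttaGt

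The upstream probe lies at chr2:162760546-162760605 and the downstream one at chr2:162762490-162762549, both on the plus strand of mm9. The downstream probe read -1.51, -1.45 and -1.24. It was low on all 3 arrays, in both dye orientations, with a mean of -1.40 ± 0.14 (2.64-fold lower, adjusted p = 0.0442). The upstream probe, the brighter of the pair and hence the value of the gene above, read -0.70, 1.26 and -0.52 and averaged 0.01 ± 1.08. The downstream probe was the lower of the pair on each array, with differences of -0.81, -2.71 and -0.72, and the widest gap was on array 2, where the upstream probe read 1.26. The call of the downstream probe was lost without array 1 (adjusted p = 0.310) or array 3 (0.172), and with 3 other settings.

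Hnrnpa3, a nuclear RNA-binding protein of the hnRNP A/B family, was read by 7 probes whose means were ordered along the gene. From the first to the last along the genome they averaged 0.61, 0.37, 0.18, 0.05, 0.05, -0.36 and -0.79. The order of the means thus followed the order of the probes, save for the middle pair, which had the same value to 2 decimals. The ends of the series are shown because they lie on opposite sides of 0 on every array.
Hnrnpa3 at base 644: tGtGaaGtGaaaaaGGCCCtttCtaaaCaa
Hnrnpa3 at base 5126: GaCaGCaGaGGtGGtCtGtaattCaattGt

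The first probe, at chr2:75500576-75500719 on the plus strand, crosses an exon junction and read 0.65, 0.09 and 1.09. The last, at chr2:75507367-75507426, read -0.54, -0.95 and -0.87 (-0.79 ± 0.22, adjusted p over all probes 0.116 in limma). Neither passed. These probes belong to different RefSeq transcripts of the gene. On a single transcript, the probe at base 1438 read 0.10, 0.17 and 0.29, and the probe at 5126 was lower than it on each array, with differences of -0.64, -1.12 and -1.16.

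**Figure D3:**
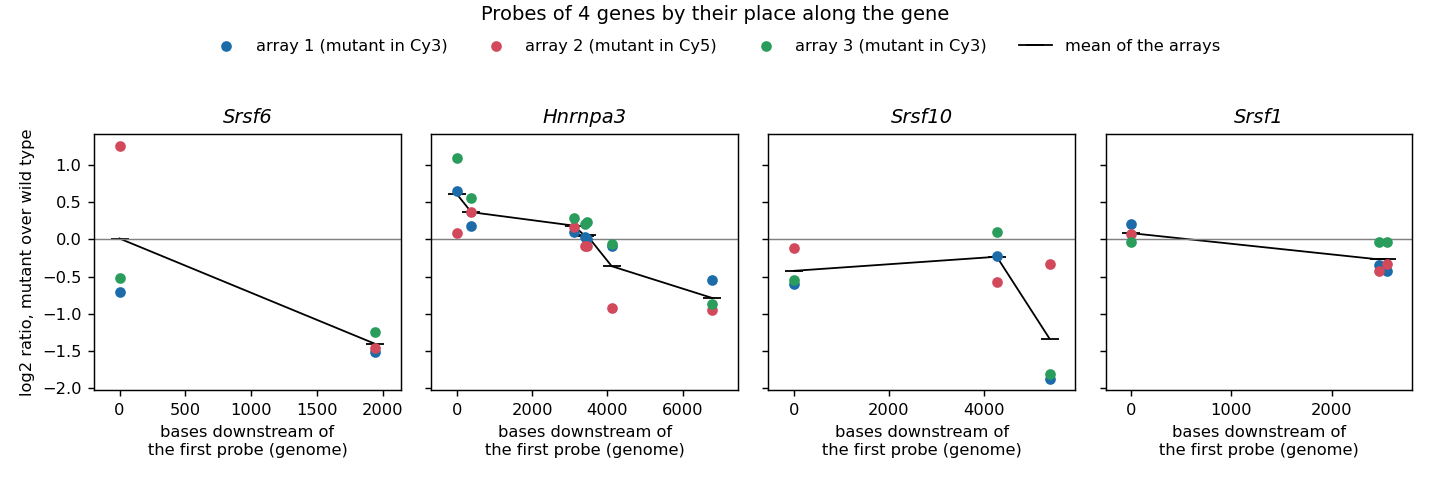
Log2 ratio of mutant over wild type (vertical) of each kept probe of Srsf6, Hnrnpa3, Srsf10 and Srsf1 against its distance in genomic bases from the first probe of the gene (horizontal); points are arrays and the line joins the means. The last probe has a lower mean than the first in all 4 genes, from -1.40 against 0.01 in Srsf6 to -0.26 against 0.08 in Srsf1. The 4 were picked for disagreeing probes or after values were seen, so their shared direction is no result. Over all members the distal probe was the lower in 17 of 27 pairs, and in U2af1l4 and U2af2, among others, it was the higher.

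In some other members the last probe also had a lower mean than an upstream one. The last Srsf10 probe, at base 2896, read -1.87, -0.32 and -1.81, against -0.23, -0.57 and 0.10 for a probe at 1783 of the same transcript, so it was the lower in arrays 1 and 3 only. The first Srsf10 probe, on another transcript, averaged -0.42, so the 3 means did not decline in order. Both distal Srsf1 probes averaged below 0, at -0.27 and -0.26, against 0.08 upstream. The distal probe of Snrpd1, an Sm core gene, read -0.87, -0.64 and -0.53 against 0.18, -0.33 and 0.26 upstream. Counting 1 pair per transcript, the distal probe was the lower in 17 of 27 member pairs (63%) and in 47.7% of 3507 pairs of all genes. For pairs over 1000 bases apart it was lower in 10 of 11 member pairs (90.9%) with a median difference of -0.35, and in 59.3% of 1622 pairs of all genes with a median of -0.15. The distal probe was lower on all 3 arrays in 3 of these 11 (27.3%) and in 34.2% of the 1622, so by that count the members were below the rest. The part of the dye in these differences was not tested.

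Splicing genes outside the name pattern were read from fixed lists, and 1 of them passed. In limma, 0 genes passed among the other U2, U5 and tri-snRNP proteins (21 tested), the PRP19 complex and catalytic helicases (26), the minor spliceosome (6), the LSm and SMN complex (21), the exon junction complex (10), the SR protein kinases (7) and the broad splicing regulators (33). Their medians were -0.12, -0.04, 0.33, -0.02, 0.07, -0.21 and 0.09. An unadjusted p under 0.05 in limma was reached by 12.1% of all genes as higher and 7.77% as lower, or 19.9% in either direction. In the lists it was reached by 2 higher and 1 lower gene of the first, 1 higher and 2 lower of the second, and 0 of the minor spliceosome and LSm lists. The exon junction list had 1 lower, the kinases 1 higher, and the broad regulators 3 higher and 2 lower.

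Most genes of the general machinery in these lists stayed near 0, with a few apart. Cd2bp2, a U5 protein, read 0.59, 0.57 and 0.72 (0.63 ± 0.08, adjusted p = 0.161), but another of its probes averaged -0.27. Cdc40, a second-step factor, read 0.77, 0.81 and 0.44, and Isy1 of the PRP19-related complex read -1.58, -0.40 and -1.25. Upf3b, a nonsense-mediated decay factor of the exon junction list, read -0.52, -0.76 and -0.56. None of the 4 passed. The minor spliceosome genes Zrsr1 (1.05, -0.32 and 1.20) and Rnpc3 (1.05, -0.42 and 0.67), the snRNP assembly genes Lsm11 (0.85, 0.04 and 0.74) and Lsm4 (-1.08, 0.21 and -0.91) and the exon junction gene Rnps1 (-1.50, 0.17 and -1.28) had arrays 1 and 3 on 1 side and array 2 at the other or near 0. A second Rnps1 probe was lower on all arrays, at -0.65, -0.45 and -0.49. Arrays 1 and 3 shared a sign opposed to that of array 2 in all 6 minor spliceosome genes, in 71.4% of the LSm and SMN list, in 61.5% of the PRP19 list, in 56.3% of the members and in 38.4% of all genes. The share was 50% in the exon junction list, 47.6% in the other U2, U5 and tri-snRNP list and 42.4% in the broad regulators. It was 29.4% in the neural regulators and 14.3% in the kinases. The direction also differed. Green was the brighter on every array in 83.3% of the minor spliceosome list and 38.5% of the PRP19 list, against 15.5% of the members. Red was so in 16.7%, 23.1% and 40.8%. The imprinted Sm-like gene Snrpn read -0.19, 0.91 and 0.83.

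Larger ratios were found in a few single genes, most of them regulators of splicing. As groups, 9.09% of the broad regulators and 14.3% of the SR protein kinases had an absolute log2 ratio over 1, against 11.2% of all genes. Srpk2, a kinase of SR proteins, read 2.25, 1.40 and 1.74 (1.79 ± 0.43, 3.47-fold higher), higher on every array with an adjusted p of 0.0503 in limma, just above the threshold. Celf1, a regulator of splicing and mRNA decay, read 1.73, 1.22 and 1.45 (1.47 ± 0.25, adjusted p = 0.0517), and its mutant values all lay above wild type. Of its 2 other probes 1 averaged 1.25 and the other 0.03. Both genes passed with some other settings, 9 of 17 for Srpk2 and 7 of 17 for Celf1. These include the dye term, where array 2 is the only array of its orientation. They also include leaving out array 2, where dye and genotype cannot be told apart. The kinase Clk2 read -0.80, 0.11 and -0.92, and Raver2, a partner of PTB proteins, read -1.41, -0.56 and -1.16 (-1.04 ± 0.43, adjusted p = 0.110), with a second probe at -0.24. Luc7l3, a U1-associated protein, was read in opposite directions by its probes: the brighter gave 2.49, 1.01 and 1.81 (1.77 ± 0.74, adjusted p = 0.0746) and the other -1.74, -1.42 and -1.76 (-1.64 ± 0.19, adjusted p over all probes 0.0383).

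The neural splicing regulators, of which 17 of 19 were tested, were spread most widely. Rbfox2 was the gene that passed: it read 1.90, 1.48 and 1.55 (1.64 ± 0.22, 3.12-fold higher, adjusted p = 0.0453 in limma), with mutant values all above wild type, and a second probe read 1.32, 1.70 and 1.19. Rbfox2 is also made in muscle, heart and epithelium. Its call was lost without array 1 (adjusted p = 0.292), without array 3 (0.170) and with 3 other settings. At an unadjusted p under 0.05 in limma, 7 other genes of the list were lower and 0 higher, against 7.77% and 12.1% of all genes, and none passed. Elavl2, a neuronal RNA-binding protein, read -2.07, -0.91 and -1.51 (-1.50 ± 0.58, adjusted p = 0.0753). The other 6, named after their values were seen, were Srrm4 (-2.26), Elavl4 (-2.07), Celf3 (-2.02), Nova1 (-1.72), Rbfox3 (-1.61) and Srrm3 (-0.72). Of the 17 means, 11 were below 0 and 6 above. Those above were Rbfox2, Celf2 (0.58), Elavl3 (0.28), Celf4 (0.24), Celf5 (0.18) and Rbfox1 (0.06). The median of the 17 was -0.57, and by array it was -0.50, -0.03 and -0.97. With the scanner's own log ratio the median was -1.0.

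Several marker lists of cell types gave larger median ratios than the members, in both directions. The neural progenitor and neuron list, which shares Elavl3 with the regulators, had a median of -1.91, with array medians of -2.40, -0.46 and -2.84, and 12 of 15 genes were lower on all arrays, although 0 passed in limma (12 at an unadjusted p under 0.05). It was lower on arrays 1 and 3 by more than on array 2, as the neural regulators were. All 9 cardiac muscle markers were higher on all arrays with a median of 2.63, and 2 passed. Of the 10 visceral endoderm markers 8 were higher on all arrays, with a median of 2.11 and 1 passing. The pluripotent markers had array medians of -1.94, -2.0 and 0.90, so replicate 3 differed from the others in sign. Of the 5 endothelial markers 4 were higher on all arrays, with a median of 0.85, and 2 passed, Flt1 and Kdr, which encode receptors of VEGF. The proliferation markers had a median of -0.15. The part of these cell types in the ratios of the splicing genes was not tested.

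**Figure D4:**
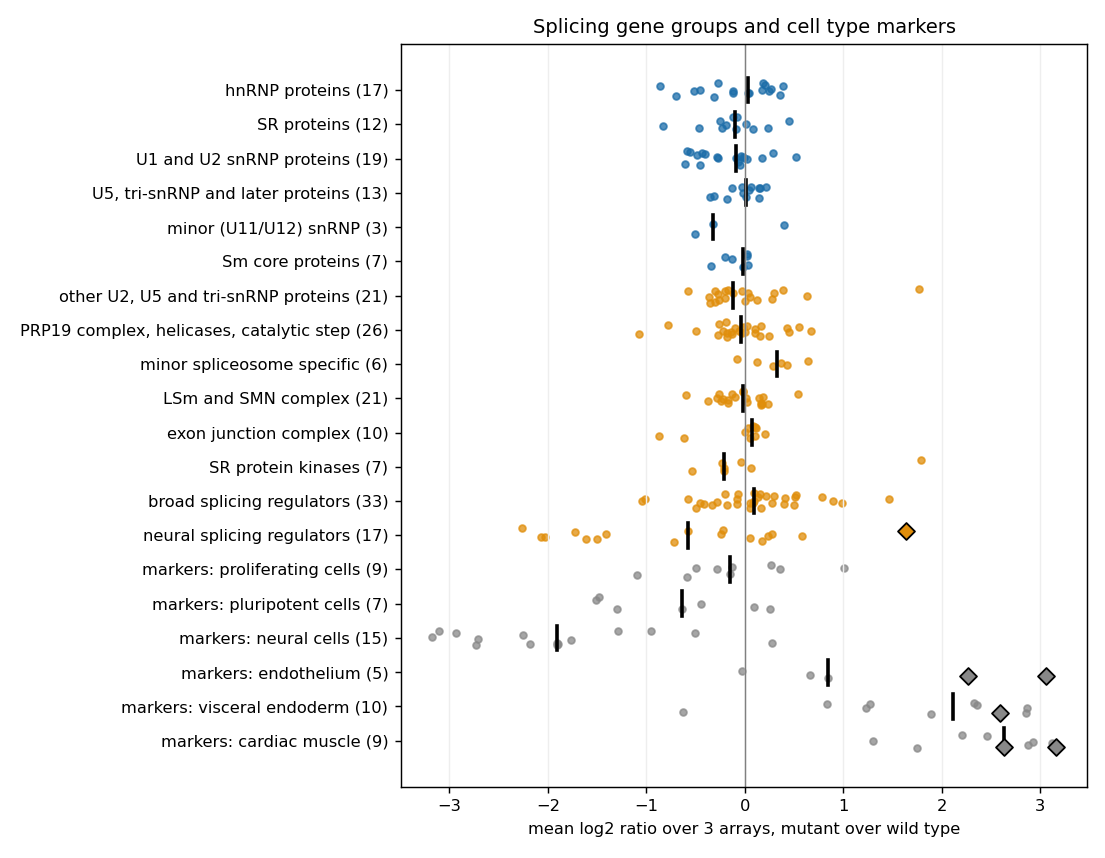
Mean log2 ratio over 3 arrays of each gene of the member role groups (blue), the other splicing lists (orange) and the cell type marker lists (grey), with the number of tested genes in brackets; vertical bars are medians and diamonds are genes with an adjusted p under 0.05 in limma. The member groups lie between -0.86 and 0.52, while the neural splicing regulators reach from -2.26 to 1.64 and the neural marker list has a median of -1.91.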

How the data were processed

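Per the file headers, Agilent Feature Extraction 10.7.3.1 made the scanner files. The authors deposited in them the intensity of each spot and of its surroundings, and a log10 ratio of Cy5 over Cy3. Their deposited value table is on a log2 scale. The submitters' processing notes name limma; background and centring steps behind it are unknown here. Regressed on scanner ratios of 9917 bright spots, the table's columns gave slopes of 0.911, 0.934 and 0.976, so they run as mutant over wild type, and their medians were -0.02, 0.02 and -0.01. This table served as an alternative.

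Intensities were processed in R 4.3.3 with limma 3.58.1: surroundings limited to 100 units, normexp with offset 50, then loess per array (control spots at weight 0). After outlier spots were dropped, replicate spots were averaged. Probes had to be well above background for 1 genotype or both on every array (25497 of 39429), and each gene took its brightest probe. Tests used lmFit and eBayes against 0 (two-sided) and Benjamini-Hochberg over all genes at 0.05. Only 3 arrays set the precision, with 4.75 degrees of freedom. Dyes came from the labels. Member symbols were found by accession for 113 probes, by symbol for 11 and by synonym for 1, in a RefSeq table of GRCm38.p6, while coordinates are the files' own (mm9). Probes can also bind transcripts of near-identical copies, which hnRNP and snRNP genes have.

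Named members were, per role, up to 2 highest and 2 lowest of those with the same sign on all arrays, those with disagreeing probes and the 3 extremes of array 2 in each direction. Of other lists, called genes and the 2 of smallest p were named, and Dido1. Srsf10, Srsf1, Snrpd1 and further genes given as context were added after values were seen. The members, lists and the background limit were chosen with earlier results of these data known. The values of 1 member are not reported here singly; it is kept in all counts and medians.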

Additional observations from a re-analysis of the deposited data

How the results depend on the processing

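The members' count of 0 held with every setting but 3: the dye term gave 4 (Hnrnph3, Pnisr, Prpf39 and Snrnp48, all lower, with 12.9% of all genes passing), probes tested singly gave 1 (Srsf6), and leaving out a replicate gave 0 to 17, the 17 without replicate 2. In the dye-term fit array 2 is the only array of its orientation, so the residual spread comes from arrays 1 and 3 alone. The members' median ran from -0.20 (without replicate 2) to -0.02 when a replicate was left out. With every other setting it lay between -0.13 (authors' log2 ratios) and -0.0058 (dye term), against -0.065 in the main fit. These moves were under 0.213, the SD of the array medians. That SD is larger than the median itself and holds the opposite sign of array 2, so it is a wide limit that does not show stability. The count of all genes, 325, was 0 without a limit on the local background, with the authors' log2 ratios and with no filter on dim probes, where 3020, 3838 and 4831 genes had an unadjusted p under 0.05 in limma. It was 733 with an offset of 16, 769 with the scanner's log ratio, 622 with probes tested singly, 2534 with the dye term, 602 with an intensity trend, 725 with base composition taken out, and 0 to 5082 when a replicate was left out (0 without replicate 1 or 3). The share higher was 76.6% and fell to 61.1% with the dye term and 60% without replicate 2.

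Some members' means changed sign, and in their main value none had passed. Srsf6 was at -0.012 without the background limit, -0.032 with median centring, -0.066 with the scanner's ratio, -0.093 with the authors' ratios, -0.70 with the mean of its probes, -0.61 to 0.37 without a replicate (the lowest without replicate 2) and -0.037 with base composition taken out. Srsf2 was at 0.10 with the dye term and from -0.77 (without replicate 2) to 0.14 without a replicate. Snrpc was at -0.0047 with the dye term and from -0.035 to 0.87 without a replicate (the highest without replicate 2). Snrnp48 ran from -0.74 to 0.51 (without replicate 2). Dido1, which is not a member, was at 0.31 with the mean of its probes, whose own means lie on both sides of 0. The cause was not tested. The median of the neural regulators was -1.0 with the scanner's ratio. The main test is itself paired, as each array sets 1 mutant against 1 wild-type RNA.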
